A study of Homo sapiens with 6 samples.

Results

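The keratins of basal and simple epithelium were followed in RT-112 cells, a human bladder cancer line, after knockdown of PPP2R2A. The set is a list of 10 gene names: KRT5, KRT6A, KRT13, KRT15, KRT16 and KRT17 of stratified epithelium, and KRT7, KRT8, KRT18 and KRT19 of simple epithelium. Of these 10, 8 had a probe set under their own symbol, with 12 probe sets in all among the 54675 on the array, and KRT6A and KRT17 were not analysed here. PPP2R2A encodes a regulatory B subunit of the phosphatase PP2A. Cells received siRNA 1 against PPP2R2A, siRNA 2 against PPP2R2A, or scramble siRNA, each at 50 nM and given in 2 transfections 24 h apart with a lipid reagent, and RNA was taken 24 h after the second. Each of these 3 treatments had 2 Affymetrix expression arrays, A and B. The series' design text calls these pairs technical duplicates, so p-values measure the spread between such arrays and not between independent cultures. No untransfected cells were used here, and all groups share the transfection and the single cell line.

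Keratins form intermediate filaments as obligate pairs of a type I (acidic) and a type II (basic) protein. KRT5 is the type II keratin of basal cells of stratified epithelia and of the urothelium. KRT8 with KRT18 is the pair of simple epithelia, KRT7 and KRT19 are widely used markers of urothelial and glandular epithelium, and KRT13 marks differentiating cells of internal stratified epithelia. The type II genes KRT5, KRT7 and KRT8 and the type I gene KRT18 lie on chromosome 12, where RefSeq places KRT8 and KRT18 as neighbours. KRT13, KRT15, KRT16 and KRT19 lie on chromosome 17, with KRT13, KRT15 and KRT19 next to one another.

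PPP2R2A had signals of 336 and 398 on the siRNA 1 arrays and 510 and 533 on the siRNA 2 arrays, against 1381 and 1589 with scramble siRNA. It fell to 24.7% of the scramble level with siRNA 1 (limma adjusted p = 0.0403) and to 35.2% with siRNA 2 (adjusted p = 0.0461). Of 10 urothelial markers, 8 were above the filter on low signals, and UPK1A and UPK3A were below it. The summed signal of the urothelial list was 22816 to 23134 on the siRNA 1 arrays and 21638 to 22031 on the siRNA 2 arrays, below the 25825 to 26562 of the scramble arrays. Its members did not all go one way. GATA3, UPK1B and FOXA1 were lower on all 4 knockdown arrays than on either scramble array, and PPARG was higher. In that order the log2 changes were -0.15, -0.69, -0.19 and 0.35 with siRNA 1. With siRNA 2 they were -0.32, -0.39, -0.18 and 0.16. In the same arrays 4 of 7 fibroblast markers passed the filter (VIM, COL1A1, DCN and LUM). The summed signals of this list were 6730 to 7619, 5923 to 5928 and 6011 to 6303 for siRNA 1, siRNA 2 and scramble. Most of the sum came from LUM, at 4520 to 6351, and COL1A1, at 867 to 1175. VIM and DCN were dim, at 73.1 to 160 and 43.9 to 133, and COL1A2, COL3A1 and PDGFRB were below the filter. Passing counts were 2 of 5 endothelial and 2 of 5 leukocyte markers, with sums of at most 504 and 200 on any array. No marker with a probe set was listed at 0. The 3'/5' signal ratio of the ACTB control probe sets, a measure of RNA and labelling quality, was 6.52 and 7.82 with siRNA 1 and 7.47 and 12.37 with siRNA 2, against 5.43 and 5.94 with scramble. The same ratio for the GAPDH control probe sets was 1.001 and 1.02 with siRNA 1, 1.002 and 0.943 with siRNA 2, and 1.004 on each scramble array. Array siRNA 2 B therefore stood highest on the ACTB ratio and lowest on the GAPDH ratio. The part of these ratios and of the marker sums in the keratin values was not tested.

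No keratin gene of the set passed the test in any comparison, and the largest differences belonged to KRT13 and KRT8 with siRNA 2. A gene was represented by its brightest probe set. It was tested when this exceeded the array's median signal on at least 2 of the 6 arrays, and called at a limma adjusted p under 0.05 with at least 1.5-fold change, after adjustment over all 12735 genes tested. All 8 keratins were tested. With siRNA 1, 0 of 8 were called, against 0.393% of all genes tested, and with siRNA 2, 0 of 8, against 0.597%. For the mean of both siRNAs 0 of 8 were called, against 0.51%. Directly between siRNA 1 and siRNA 2, 0 of 8 were called, against 0.212%. These comparisons share the scramble arrays or the siRNA arrays and are not independent.

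At an unadjusted limma p under 0.05, 2 of 8 keratins were lower with siRNA 1 (KRT5 and KRT13), against 6.65% of all genes, and 5 of 8 with siRNA 2 (KRT5, KRT13, KRT15, KRT8 and KRT19), against 8.76%. None was higher in either comparison, where 9.55% and 12% of all genes were. For the mean of both siRNAs 4 of 8 were lower (KRT5, KRT13, KRT8 and KRT19), against 7.44%, and KRT8 and KRT13, 2 of 8, were higher with siRNA 1 than with siRNA 2, against 9.16%. The siRNA 1 count was 0 with arrays centred on their medians. The siRNA 2 count was 3 after quantile normalization and 2 with arrays centred on their medians. Shares over all genes were not counted under these normalizations. Without array siRNA 1 A, which leaves 1 array in that group, the siRNA 1 changes were -0.27 for KRT5 and -0.26 for KRT13. With the variance prior of limma fitted as a trend on signal level, 0 of 8 were called with siRNA 1 (2.35% of all genes) and 2 of 8 with siRNA 2 (3.71%), KRT13 and KRT8. Without array siRNA 2 B, the one with the highest ACTB ratio, the siRNA 2 changes were -0.66 for KRT13 and -0.60 for KRT8. With the trend on signal level 0 of 8 were called for the mean of both (2.18%) and between the siRNAs (2.84%).

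**Figure D1:**
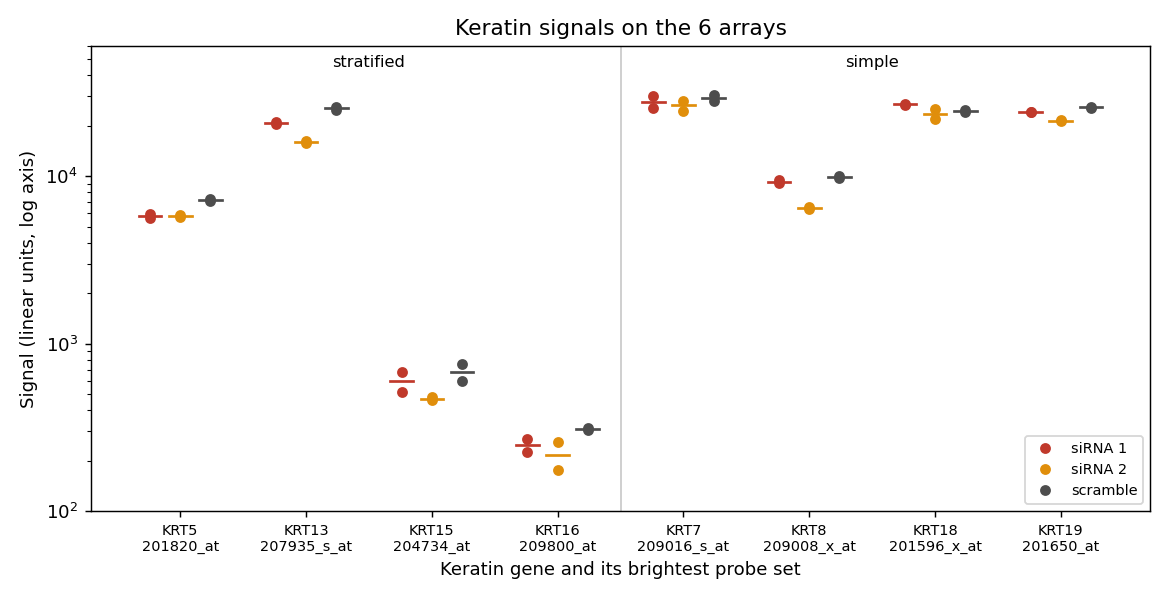
Signal of the brightest probe set of each of the 8 keratins on every array (vertical axis, deposited signal on a log axis). For each keratin siRNA 1, siRNA 2 and scramble run from left to right. Points are arrays A and B and bars are the means of 2. KRT13 and KRT8 are lowest on the siRNA 2 arrays, at 16154 and 15787 and at 6559 and 6333.

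The median log2 change over the 8 keratins was -0.14 with siRNA 1 and -0.41 with siRNA 2, beside medians over all genes of 0.01 and 0.02. With siRNA 1, 7 of 8 keratins had a log2 change below 0, where 47.8% of all genes did. With siRNA 2, 8 of 8 did (KRT18 was at 0.04 after quantile normalization), where 47.6% of all genes did, and for the mean of both siRNAs 7 of 8 did, where 48.9% did. The direct difference, siRNA 1 minus siRNA 2, was above 0 for 8 of 8 keratins by their brightest probe sets. It was below 0 for 51.2% of all genes. This sign was not stable for every keratin, and KRT5 was below 0 after quantile normalization or median centring. With all probe sets of a gene averaged, KRT7 was at -0.10 and KRT19 at -0.57. KRT7 was also below 0 without array siRNA 1 B or siRNA 2 A, and KRT16 was at -0.08 without array siRNA 2 A. Both siRNA 1 arrays lay below both scramble arrays for 5 of 8 keratins (22.7% of all genes), and both siRNA 2 arrays did for 6 of 8 (24% of all genes). For 5 of 8 all 4 knockdown arrays lay below both scramble arrays (10.6% of all genes), and KRT18 alone had both siRNA 1 arrays above them (26.7%). Both siRNA 1 arrays lay above both siRNA 2 arrays for 5 of 8 (24.2%). With arrays centred on their medians the siRNA 1 count was 3, the siRNA 2 count 6 and the count between the siRNAs 3. The shares over all genes were not counted under this centring, so these 3 counts have none beside them. The stratified keratins had medians of -0.30 with siRNA 1 and -0.52 with siRNA 2, and the simple keratins had medians of -0.09 and -0.21. In bulk samples, fewer cells of a type and less RNA per cell cannot be told apart.

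Among the stratified keratins, KRT5 had signals of 5647 and 5991 with siRNA 1 and 5878 and 5735 with siRNA 2, against 7305 and 7106 with scramble. All 4 knockdown arrays lay below both scramble arrays and overlapped each other. The mean was 5819 ± 243 for siRNA 1, 5807 ± 101 for siRNA 2 and 7205 ± 141 for scramble (SD, n = 2 arrays each). The log2 change was -0.31 with siRNA 1 (95% interval -0.52 to -0.10, limma adjusted p = 0.195). It was also -0.31 with siRNA 2, where the adjusted p was 0.135, and the direct difference between the siRNAs had an interval of -0.21 to 0.21.

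KRT13, the differentiation keratin of internal stratified epithelia, had signals of 20483 and 21185 with siRNA 1 and 16154 and 15787 with siRNA 2, against 26033 and 24864 with scramble. The 3 groups did not overlap, with siRNA 2 lowest. The mean was 20834 ± 496 for siRNA 1, 15970 ± 260 for siRNA 2 and 25448 ± 826 for scramble (SD, n = 2 arrays each). The siRNA 1 mean was 81.9% of scramble (log2 change -0.29, interval -0.49 to -0.08, limma adjusted p = 0.208). The siRNA 2 mean was 62.8% of scramble (log2 change -0.67, interval -0.88 to -0.47), with a limma adjusted p of 0.0553 that missed the threshold. Between the siRNAs the log2 difference was 0.38 (siRNA 1 minus siRNA 2, interval 0.18 to 0.59, limma adjusted p = 0.116).

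KRT15, a type I keratin of basal cells, read 677 and 517 with siRNA 1 and 458 and 483 with siRNA 2, against 596 and 757 with scramble. The siRNA 2 arrays were below both scramble arrays, while the siRNA 1 arrays overlapped them. Its log2 change was -0.18 with siRNA 1 (limma adjusted p = 0.685) and -0.51 with siRNA 2 (adjusted p = 0.223). With 1 array left out the KRT15 change ran from -0.38 (without siRNA 1 A) to 0.01 (without siRNA 1 B) for siRNA 1, and from -0.69 (without scramble A) to -0.34 (without scramble B) for siRNA 2. KRT16, a keratin induced in injured and hyperproliferative epidermis, read 225 and 269 with siRNA 1 and 176 and 260 with siRNA 2, against 315 and 305 with scramble. All knockdown arrays were below both scramble arrays, with log2 changes of -0.33 and -0.53 and limma adjusted p of 0.517 and 0.258 for siRNA 1 and siRNA 2. Without array siRNA 2 A the KRT16 change with siRNA 2 was -0.25, and without array siRNA 2 B it was -0.82.

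Among the simple keratins, KRT8 had signals of 9082 and 9489 with siRNA 1 and 6559 and 6333 with siRNA 2, against 10077 and 9755 with scramble. The siRNA 2 arrays lay well below all others, and the siRNA 1 arrays lay below both scramble arrays by a smaller margin. The mean was 9285 ± 287 for siRNA 1, 6446 ± 160 for siRNA 2 and 9916 ± 228 for scramble (SD, n = 2 arrays each). The log2 change was -0.62 with siRNA 2, to 65% of scramble (interval -0.83 to -0.42, limma adjusted p = 0.0558). With siRNA 1 it was -0.09 (interval -0.30 to 0.11, adjusted p = 0.611). The direct difference was 0.53 (siRNA 1 minus siRNA 2, interval 0.32 to 0.73, limma adjusted p = 0.084).

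KRT18, the filament partner of KRT8, read 26673 and 27110 with siRNA 1 and 21995 and 25192 with siRNA 2, against 24292 and 24704 with scramble. Both siRNA 1 arrays were above both scramble arrays, and the siRNA 2 arrays lay on either side of them. The log2 change was 0.13 with siRNA 1 (interval -0.12 to 0.39, limma adjusted p = 0.563) and -0.06 with siRNA 2 (interval -0.31 to 0.20, adjusted p = 0.784). The KRT8 and KRT18 signals can be followed as a pair within each array, relative to the scramble mean and free of the array's scaling. The log2 value of KRT8 minus KRT18 was -0.25 and -0.21 on the siRNA 1 arrays and -0.44 and -0.69 on the siRNA 2 arrays, against 0.04 and -0.04 on the scramble arrays. This pair difference, which was not tested, was lower on all 4 knockdown arrays than on the scramble arrays. No share over other gene pairs was counted. KRT8 minus KRT19 was -0.03 and 0.04 on the siRNA 1 arrays, which overlapped the 0.03 and -0.03 of scramble. On the siRNA 2 arrays it was -0.32 and -0.39. RefSeq lists 52 pseudogenes of KRT8 and 68 of KRT18, and both probe sets carry the suffix that the array design gives to probes shared with other transcripts, so a share of either signal from such copies cannot be separated.

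KRT19, the smallest keratin, read 24074 and 24084 with siRNA 1 and 21311 and 21607 with siRNA 2, against 25687 and 25959 with scramble. The 3 groups did not overlap, with siRNA 2 lowest. The log2 change was -0.10 with siRNA 1 (limma adjusted p = 0.563) and -0.27 with siRNA 2 (interval -0.46 to -0.08, adjusted p = 0.148). When its probe sets were averaged the changes were -1.04 and -0.47, because the second KRT19 probe set, below the filter, read 10.4 and 30.0 with siRNA 1 and 56.3 and 36.5 with siRNA 2, against 81.7 and 65.7 with scramble. KRT7, a type II keratin of simple epithelium and urothelium, read 25436 and 30130 with siRNA 1 and 24600 and 28311 with siRNA 2, against 30368 and 28116 with scramble. Its groups overlapped, and the log2 changes were -0.08 with siRNA 1 (limma adjusted p = 0.814) and -0.15 with siRNA 2 (adjusted p = 0.584).

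**Figure D2:**
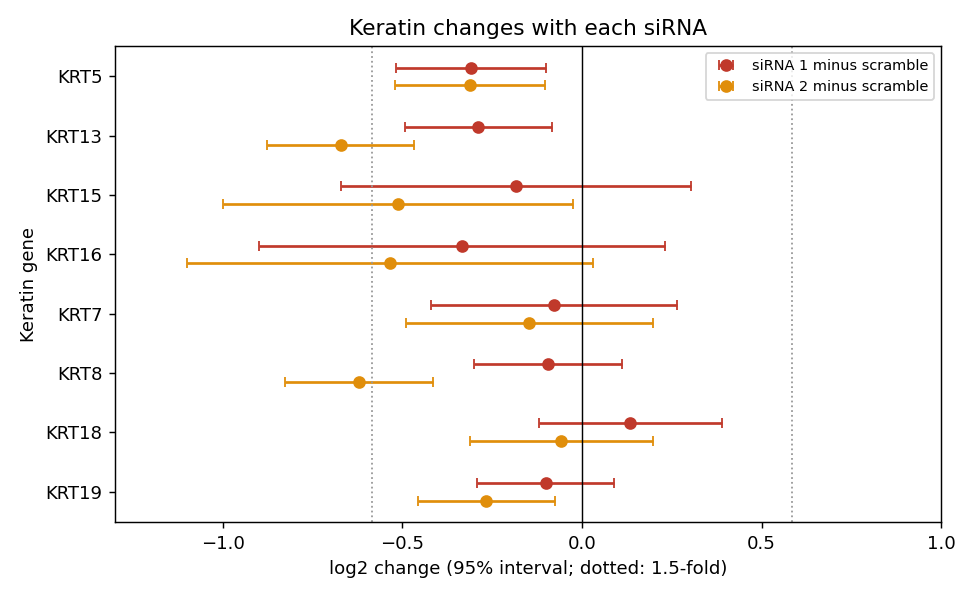
Log2 change of each of the 8 keratins (horizontal axis) with its 95% interval from limma, for siRNA 1 minus scramble and siRNA 2 minus scramble. The siRNA 2 points of KRT13 (-0.67) and KRT8 (-0.62) lie farthest below 0, and the KRT18 points of 0.13 and -0.06 lie on either side of it.

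The brightest probe sets of KRT7, KRT13, KRT18 and KRT19 lay between the 99.1 and 99.7 percentile of their arrays, and the highest signal on any array was 54355. Whether signals this bright respond in proportion to RNA was not tested. The dimmer KRT7 probe sets gave log2 changes of -0.18, -0.49 and -0.20 with siRNA 1 and -0.09, -0.35 and 0.03 with siRNA 2. Over the 11 keratin probe sets tested, 0 were called in any comparison, where at most 1 of 29374 probe sets (0.0034%) was. At an unadjusted limma p under 0.05 there were 2 with siRNA 1 (13% of all probe sets) and 5 with siRNA 2 (16.7%), 3 for the mean of both (14.7%) and 2 between the siRNAs (15%).

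**Figure D3:**
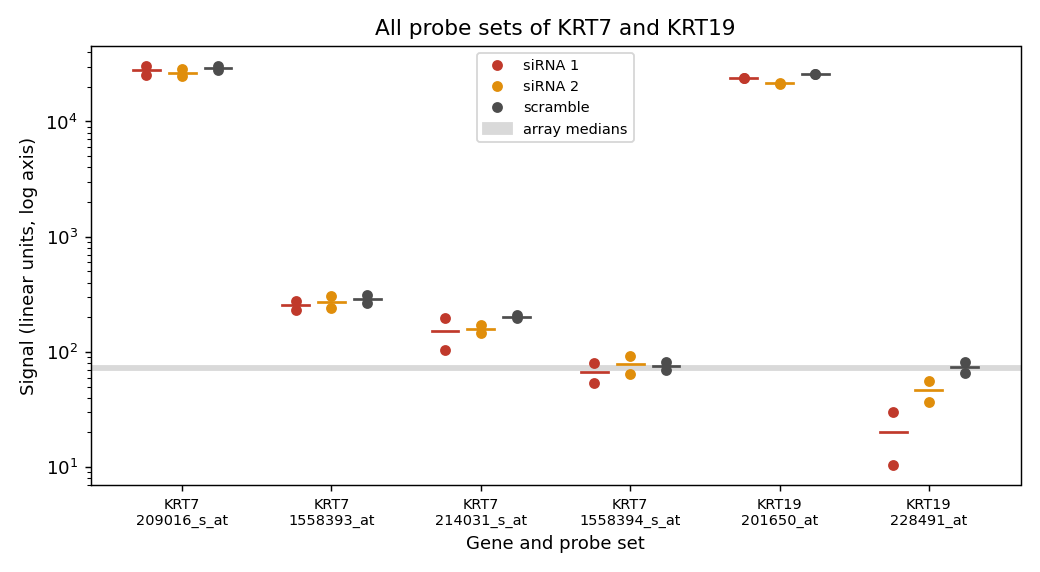
Signal on a log axis of each of the 4 probe sets of KRT7 and the 2 of KRT19 on the 6 arrays, with siRNA 1, siRNA 2 and scramble from left to right. The brightest probe set of KRT7 lies at 24600 to 30368, the KRT19 probe set below the filter at 10.4 to 81.7; levels are not compared between probe sets.

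The promoter windows of KRT5 and KRT8 were inspected because only these 2 of the 10 keratins were matched in the RefSeq promoter table. Both genes were lower with siRNA 2 at the unadjusted level, KRT5 by a like amount with both siRNAs and KRT8 mainly with siRNA 2. Each window covers 250 bases before the annotated start on the minus strand of chromosome 12 in GRCh38.p14, at chr12:52520395-52520644 for KRT5 and chr12:52926470-52926719 for KRT8, and that of KRT8 is at 1 of several annotated starts. Capitals mark the letters ATAAAA.
KRT5: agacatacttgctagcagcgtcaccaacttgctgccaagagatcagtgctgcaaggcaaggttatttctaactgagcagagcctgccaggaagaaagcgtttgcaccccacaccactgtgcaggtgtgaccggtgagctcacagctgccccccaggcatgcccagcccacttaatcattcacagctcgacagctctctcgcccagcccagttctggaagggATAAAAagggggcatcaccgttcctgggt
KRT8: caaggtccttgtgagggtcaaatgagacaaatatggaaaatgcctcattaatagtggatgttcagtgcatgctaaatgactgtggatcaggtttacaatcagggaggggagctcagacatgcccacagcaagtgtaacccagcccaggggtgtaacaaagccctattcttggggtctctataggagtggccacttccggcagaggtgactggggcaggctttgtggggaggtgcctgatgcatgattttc
The KRT5 window holds ATAAAA from 29 to 24 bases before the start. These letters were searched for after the sequence was read, and occur in 14.8% of 35116 promoters on either strand. Neither window holds TATAAA (10.7% of promoters), TGANTCA, the letters bound by AP-1 factors (6.57%), GGGCGG, the GC box (42.6%), or GCCNNNGGC, bound by AP-2 factors (19.8%). These matches describe the windows and say nothing of the factors.

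Genes whose log2 signal over the 6 arrays correlated best with the keratins' mean were ZC3H15 (r = 0.9958), MRI1 (r = 0.9934) and LY6D (r = 0.9912) for the stratified keratins, and FAM98A (r = 0.9944), TNFRSF21 (r = 0.9915) and SCARB1 (r = 0.9908) for the simple keratins. At a lower threshold, 2.19% and 3.13% of the genes tested reached r of at least 0.9 with the stratified and the simple mean. The share at the level of the named genes was not counted, and the 6 arrays are 3 groups of duplicates.

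Among the other keratins, 12 of 37 listed were tested and 0 were called with either siRNA, and KRT6B and KRT6C were not analysed here. At an unadjusted limma p under 0.05 there were 0 with siRNA 1, and 4 lower and 1 higher of 12 with siRNA 2, where 8.76% of all genes were lower and 12% higher. The list's median log2 changes were -0.07 with siRNA 1 and -0.55 with siRNA 2. Below 0 were 7 of 12 with siRNA 1 (47.8% of all genes) and 11 of 12 with siRNA 2 (47.6%). With the trend on signal level, 1 of 12 was called lower with siRNA 2, where 3.71% of all genes were called in either direction. KRT23, a type I keratin, read 794 and 888 with siRNA 1 and 375 and 251 with siRNA 2, against 1136 and 944 with scramble. The siRNA 2 arrays were lowest by a wide margin, with a log2 change of -1.75 (limma adjusted p = 0.0571) against -0.30 for siRNA 1 (adjusted p = 0.575), and a direct difference of 1.45 (adjusted p = 0.0861). KRT4, the type II partner of KRT13, read 892 and 993 with siRNA 1 and 644 and 574 with siRNA 2, against 870 and 871 with scramble. It stood below scramble on the siRNA 2 arrays alone, at a log2 change of -0.52 (limma adjusted p = 0.0937) against 0.11 for siRNA 1. KRT10, a keratin of differentiating epidermis, had log2 changes of 0.04 and 0.26 with siRNA 1 and siRNA 2, and KRT85, a hair keratin near background, had -1.17 and -0.88, neither past the test. The KRT85 change with siRNA 1 was -2.02 without array siRNA 1 A and -0.33 without array siRNA 1 B. KRT14, the usual partner of KRT5, was below the filter, at 31.7 and 38.5 with siRNA 1 and 38.3 and 40.7 with siRNA 2, against 82.3 and 62.5 with scramble. KRT20, the umbrella cell keratin, was dim, at 74.5 and 59.4 with siRNA 1 and 59.2 and 10.9 with siRNA 2, against 44.1 and 93.4 with scramble.

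Of 17 desmosome and keratin linker genes tested, 1 was called, PPL, which was higher with siRNA 1 (0.212% of all genes were called higher in that comparison). This encodes periplakin, a plakin that links keratin filaments to the cornified envelope and desmosomes. Its signals were 3669 and 3872 with siRNA 1 and 3307 and 3460 with siRNA 2, against 2046 and 2092 with scramble. The knockdown arrays were all above the scramble arrays, and PPL rose by 0.87 on the log2 scale with siRNA 1 (limma adjusted p = 0.0489). With siRNA 2 the change was 0.71 (adjusted p = 0.0546), and the mean of both was called (0.79, adjusted p = 0.046), as were 0.385% of all genes in the same direction. With any 1 array left out the changes were 0.83 to 0.90 for siRNA 1 and 0.77 to 0.81 for the mean. Those fits leave 1 array in a group, so a lack of calls in them cannot judge PPL. PPL was not called with a replicate block (limma adjusted p = 0.158 and 0.143). That fit called 0 of all 12735 genes with siRNA 1, so there it cannot judge PPL either. With probe sets of unshared probes alone PPL was not called (adjusted p = 0.0656 and 0.0617). Calls over all genes with siRNA 1 were then 11, against 50 in the main fit. Fits with no filter on low values, with only the compared groups or with all probe sets of a gene averaged called 0 of all genes with siRNA 1. PPL was therefore not called with siRNA 1 in those fits, which cannot judge it. PLEC, which encodes the linker plectin, had log2 changes of 0.53 and 0.54 with siRNA 1 and siRNA 2, and DST, the hemidesmosome plakin BPAG1, had -0.26 and -0.19. DSG3, a desmosomal cadherin of basal layers, had 0.35 and 0.21, and none of these passed the test. The list's medians were 0.00 and -0.12.

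In the hemidesmosome list 0 of 6 tested genes were called with either siRNA, with log2 changes for ITGB4, the integrin subunit that binds plectin, of 0.08 and -0.37, and for CD151, its tetraspanin partner, of -0.02 and -0.32. At an unadjusted limma p under 0.05, 1 of 6 was higher and 1 lower with each siRNA, where 9.55% and 6.65% of all genes were with siRNA 1 and 12% and 8.76% with siRNA 2. Of 28 transcription factors of epithelial keratin genes, 0 were called with either siRNA. At an unadjusted limma p under 0.05, 3 were higher and 4 lower with siRNA 1, and 1 higher and 4 lower with siRNA 2. Over all genes the shares were 9.55% higher and 6.65% lower with siRNA 1, and 12% and 8.76% with siRNA 2. FOSL2, an AP-1 subunit, read 2021 and 1963 with siRNA 1 and 1666 and 1669 with siRNA 2, against 2563 and 2575 with scramble. The 3 groups did not overlap, and the log2 changes were -0.37 (limma adjusted p = 0.139) and -0.62 (adjusted p = 0.0556). GRHL3, a grainyhead factor of epithelial barrier formation, read 356 and 367 with siRNA 1 and 190 and 232 with siRNA 2, against 194 and 202 with scramble. It was highest on the siRNA 1 arrays, at a log2 change of 0.87 (limma adjusted p = 0.0807) against 0.08 for siRNA 2. KLF4, a factor of epithelial differentiation, had log2 changes of 0.62 and 0.20, and OVOL2, which represses mesenchymal genes, had -0.27 and -0.40.

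Of 10 keratin modifiers and turnover genes tested, 0 were called with either siRNA, and at an unadjusted limma p under 0.05 there were 2 higher with siRNA 1 (9.55% of all genes) and 1 lower with siRNA 2 (8.76%). STUB1, a chaperone-linked ubiquitin ligase, had log2 changes of 0.27 and 0.18 with siRNA 1 and siRNA 2, and YWHAZ, a 14-3-3 protein of the family that binds phosphorylated KRT18, had -0.09 and -0.42. PRKCE, a kinase that phosphorylates keratins, had 0.58 and 0.49, and CASP6, a caspase that cleaves KRT18, had -0.26 and -0.07. Of 9 other intermediate filament genes tested, 0 were called, with 1 higher at an unadjusted limma p under 0.05 with siRNA 1 (9.55% of all genes), and 2 higher (12%) and 1 lower (8.76%) with siRNA 2. VIM, the filament of mesenchymal cells, read 73.1 and 124 with siRNA 1 and 160 and 158 with siRNA 2, against 80.2 and 81.9 with scramble. Both siRNA 2 arrays were above the scramble arrays, at a log2 change of 0.96 (limma adjusted p = 0.144), while the siRNA 1 arrays overlapped them at 0.23. LMNA, which encodes lamins A and C of the nuclear envelope, had log2 changes of 0.00 and -0.42, SYNM, which encodes synemin, had 0.57 and 0.35, and BFSP1, a lens filament gene near background, had 0.38 and 0.82.

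**Figure D4:**
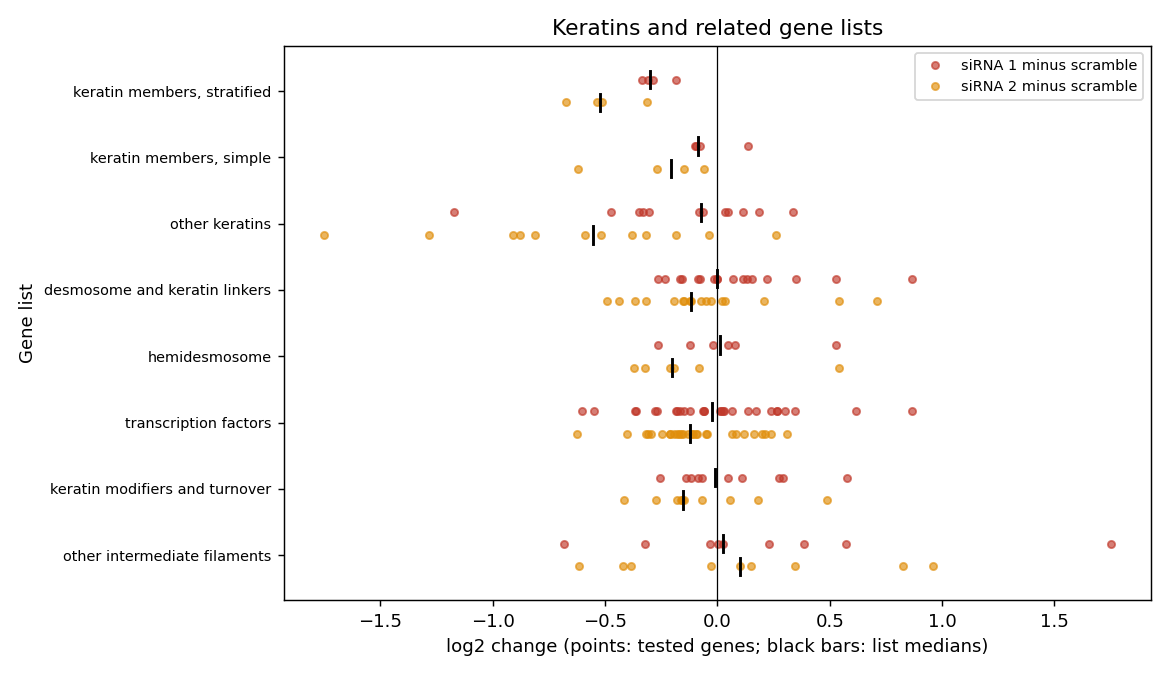
Log2 change of every tested gene of the keratin set and of each related list (points, with the list median as a line), for siRNA 1 minus scramble and siRNA 2 minus scramble. Of these, PPL at 0.87 with siRNA 1 passed the test, and KRT23 at -1.75 with siRNA 2 lies lowest.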

How the data were processed

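The data were 6 single-colour Affymetrix arrays of total RNA. The deposited files give a linear intensity for each probe set. Per the submitters' processing notes they came from Affymetrix Expression Console, with version and algorithm not given in the sources used here. The 2% trimmed mean was 499.92 on every array, so no further scaling was applied. Signals were analysed as log2(signal + 1) with limma 3.58.1 in R 4.3.3, using a mean per group over all 6 arrays and eBayes (3 residual and 1.72 prior degrees of freedom), with Benjamini-Hochberg adjustment over the 12735 genes that passed the filter of 19775 with a probe set. A second fit used the 29374 probe sets that passed. Gene names came from the platform annotation and were compared with RefSeq. Of the probe sets with 1 symbol, 41043 matched a RefSeq gene and 54 did not, and 0 symbols were changed. Figures used matplotlib 3.10.9.

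The keratins and the related lists were chosen with earlier results of these data known. From each related list the text names every gene called in any comparison and, up to 4 in all, those with the smallest p for the mean of both siRNAs, plus KRT14 and KRT20. Depth is not defined for arrays, and precision is limited by 2 arrays a group. Alternatives covered normalization, pseudocount, filter, variance trend, probe set choice, replicate block and each array left out.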

Additional observations from a re-analysis of the deposited data

How the results depend on the processing

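The count of keratins called stayed 0 for siRNA 1, for the mean of both siRNAs and for the direct difference in every alternative run. For siRNA 2 it was 2, KRT13 and KRT8, with 3 settings. These were a pseudocount of 16 (limma adjusted p = 0.0486 for each) and the filter applied on all arrays (0.018 and 0.0208). The last was the intensity trend (0.00025 and 0.000508). The count of keratin probe sets called was 2 with the filter and with the trend. With the trend 3.71% of all genes were called with siRNA 2, against 0.597% in the main fit. With siRNA 1, calls over all genes rose from 50 in the main fit to 65 with the pseudocount and 299 with the trend. They rose with the filter as well. The 2 keratin calls thus came under settings that raised calls over all genes with siRNA 1, and the cause was not tested. For the pseudocount and the filter, no share of all genes called with siRNA 2 is given here. The keratin calls under those settings therefore cannot be weighed against all genes in the same comparison. With 1 array left out a group holds 1 array, so a lack of calls in those fits cannot judge the keratins. The siRNA 2 changes ran from -0.71 to -0.59 for KRT13 and from -0.65 to -0.59 for KRT8 over all alternatives, with adjusted p from 0.00025 to 0.21 and from 0.000508 to 0.214. The array letters did not pair the samples, with correlations of deviations of 0.038, -0.031 and 0.014. A fit with the letter as replicate block called 0 keratins (KRT13 with siRNA 2 at -0.67, limma adjusted p = 0.134). With siRNA 1 that fit called 0 of all 12735 genes. Changes of sign, all of uncalled values, numbered 2 for siRNA 1, 2 for siRNA 2, 1 for the mean and 10 for the direct difference. KRT8, KRT13 and KRT18 have no value with probe sets of unshared probes alone, and the mean has none with only the compared groups. Signal over background limits KRT14, KRT20 and KRT85.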
